A study of Sus scrofa with 31 samples.

Results

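Interleukins, tumour necrosis factor (TNF) superfamily ligands and their receptors were followed through RNA sequencing of pig microglia, alveolar macrophages and hippocampus. The genes were those rows of the deposited count table to which the study's supplementary tables give a symbol that starts with TNF or with IL and a digit, or that reads LTA or LTB, and whose mean exceeded 1 CPM (the read count of a gene scaled to library size) in at least 1 of 5 sample groups. This rule gave 45 genes of the 31907 in the table: 6 interleukin ligands, 17 interleukin receptor chains, 9 TNF superfamily ligands, 9 TNF receptors and 4 TNF-induced proteins. TNF itself and LTB were not among the matched rows and were not analysed here. The lowest member, IL12RB1, still reached a mean of 15.5 CPM in its highest group, so that the limit of 1 CPM removed no gene. Of the 45 symbols, 44 stand in tables of genes that the study had already called different between groups. The counts of called genes below therefore follow in part from how the symbols were supplied, and they are not evidence that the family as a whole differs.

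All animals were male piglets in the fourth week of life, born to Large White × Landrace sows and sired with Duroc semen, and the labels give no treatment and no genetic change in any group. Microglia were sorted as CD11b high, CD45 low cells from the hippocampus, the frontal cortex and the cerebellum (24 libraries, 8 of each region). Alveolar macrophages were sorted as F4/80+ CD163 low cells from bronchoalveolar lavage fluid (n = 3), and whole hippocampal tissue was taken without cell isolation (n = 4). The 31 libraries came from 15 pigs, of which 9 gave more than 1 library. The pigs were counted by the tag numbers in the labels, and the study's methods give another number of animals. The piglets had been born into 1 of 2 kinds of housing, which the labels do not assign to samples. All 4 pigs with hippocampal tissue also gave hippocampal microglia, and 2 of the 3 pigs with alveolar macrophages also gave microglia.

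Interleukins and TNF superfamily ligands are the proteins by which immune cells signal to each other and to the tissue around them. Most interleukin receptors pair a ligand-specific chain with a shared chain, such as the common gamma chain IL2RG or the signal transducer IL6ST (gp130), and signal through JAK kinases and STAT factors. Interleukin 1 receptors act through MYD88 and IRAK kinases, and TNF receptors through TRAF adaptors or death domains, and both routes reach the transcription factor NF-kappaB. Microglia, the resident macrophages of the brain, are known to depend on the CSF1 receptor, which is engaged in brain tissue by CSF1 and by IL34.

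IL1A and IL1B1 are neighbouring genes whose products bind the same receptor, and they stood at different shares of their macrophage level in microglia, so the DNA before each is shown ahead of their values. IL1A (chr3:43718320-43731668, plus strand, Sscrofa11.1, RefSeq annotation) and IL1B1, the pig gene for interleukin 1 beta (chr3:43670126-43677125, plus strand), lie 41194 bases apart. The windows hold the 250 bases before each annotated gene start, 5′ to 3′, at chr3:43718070-43718319 and chr3:43669876-43670125. Capitals mark a match to the TATA box letters TATAAA, searched on both strands.
IL1A: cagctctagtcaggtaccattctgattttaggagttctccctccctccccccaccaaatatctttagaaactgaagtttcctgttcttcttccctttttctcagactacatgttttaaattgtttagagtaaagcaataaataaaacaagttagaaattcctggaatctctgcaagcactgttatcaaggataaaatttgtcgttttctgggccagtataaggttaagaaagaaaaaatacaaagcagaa
IL1B1: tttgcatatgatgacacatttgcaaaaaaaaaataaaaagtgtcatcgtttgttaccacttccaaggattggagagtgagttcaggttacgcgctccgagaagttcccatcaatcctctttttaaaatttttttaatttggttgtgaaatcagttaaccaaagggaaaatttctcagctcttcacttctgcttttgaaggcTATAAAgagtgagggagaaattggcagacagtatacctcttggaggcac
The window before IL1B1 held 1 match, 49 bases before the annotated start, and the window before IL1A held none. Across the members, 8 of the 44 that lie on a chromosome (18.2%) had this match, against 9.76% of 19551 windows of the same length before all annotated genes. The letters GAGGAA, bound by the myeloid factor PU.1, were found before 12 of 44 members (27.3%) and in 21.97% of all windows. A match describes the letters only.

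Total counts per library ranged from 18438494 to 43477403, so that 3 counts, the limit taken for detection in 1 library, corresponded to between 0.0640 and 0.146 CPM. Replicates of a group differed by more than sampling noise in every pair. All 8 microglial markers examined were higher in microglia than in alveolar macrophages and hippocampal tissue, and their sum ranged from 3912 to 7974 CPM in microglia and from 211.9 to 382 CPM in alveolar macrophages. The alveolar macrophage libraries carried CD163 and MRC1 (401 ± 149.9 and 261 ± 69.9 CPM, mean ± SD), whereas MARCO, an alveolar macrophage receptor, was listed at 0 in every library. They also carried lymphocyte RNA. The 10 matched T and NK cell markers summed to 1098 to 1997 CPM there, against 100.2 to 212 CPM in microglia, where PRF1 and CD2 made up most of the sum and CD3E stood at 0.455 ± 1.09 CPM. The 8 B and plasma cell markers summed to 933.6 to 2946 CPM in alveolar macrophages and to 67.6 to 249 CPM in microglia. The 4 matched neutrophil markers summed to 112 to 266 CPM in alveolar macrophages and to 2.93 to 39.9 CPM in microglia. CSF3R made up most of both sums, at 178 ± 75.1 and 21.4 ± 10.7 CPM. CXCR2 was at 15.0 ± 3.25 and 0.0319 ± 0.0811 CPM. ELANE went the other way, at 1.62 ± 0.431 and 2.31 ± 0.943 CPM, and MPO was listed at 0 in both cell types. In 4 microglia libraries, cerebellum of pigs 12583 and 12902 and frontal cortex of pigs 12599 and 12891, the 8 neuronal markers summed to over 200 CPM. The hippocampal microglia stayed at or below 62.2 CPM and the tissue at 3372 to 4107 CPM.

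The values below turn on 2 comparisons, microglia against alveolar macrophages and hippocampal microglia against hippocampal tissue. The first set the mean of the 3 microglia regions against alveolar macrophages and asked for an adjusted p under 0.01 and a fold over 3, and the second set hippocampal microglia against hippocampal tissue with a fold over 4. Both use the hippocampal microglia, so their values are given side by side. In the first, 10 of 45 members were higher in microglia, where 12.2% of the 11633 genes tested were, and 20 were lower, where 10.1% of all genes were. Samples did not overlap for 14 members in the first direction and 24 in the second, against 14.3% and 17.3% of all genes. In the second comparison 27 members were higher in hippocampal microglia and 2 in tissue, against 11.7% and 22.1% of all genes. On the adjusted p alone 31 members were higher and 3 lower there, against 32.2% and 37.0% of all genes. Since the symbols came from called genes, nothing is read from these shares. The median log2 fold change of the members was −1.21 against alveolar macrophages and 2.29 against tissue, and that of all tested genes 0.06 and −0.08. With the pig as a fixed block in edgeR the count of members higher in alveolar macrophages fell from 20 to 10. Only 2 pigs inform that block, and those members are marked below. Among members still called against alveolar macrophages, it moved the log2 fold change of IL1RAPL2 from 7.73 to 9.42, of TNFSF15 from 6.13 to 6.89, of IL18 from 1.78 to 2.52, of IL34 from 3.30 to 2.56, of TNFSF9 from −3.44 to −4.09, of IL12RB2 from −4.10 to −4.85 and of IL2RB from −7.73 to −7.01. In bulk libraries, fewer cells of a type and less RNA per cell cannot be told apart. The part of lymphocyte RNA in the alveolar macrophage values was not tested for any gene.

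**Figure D1:**
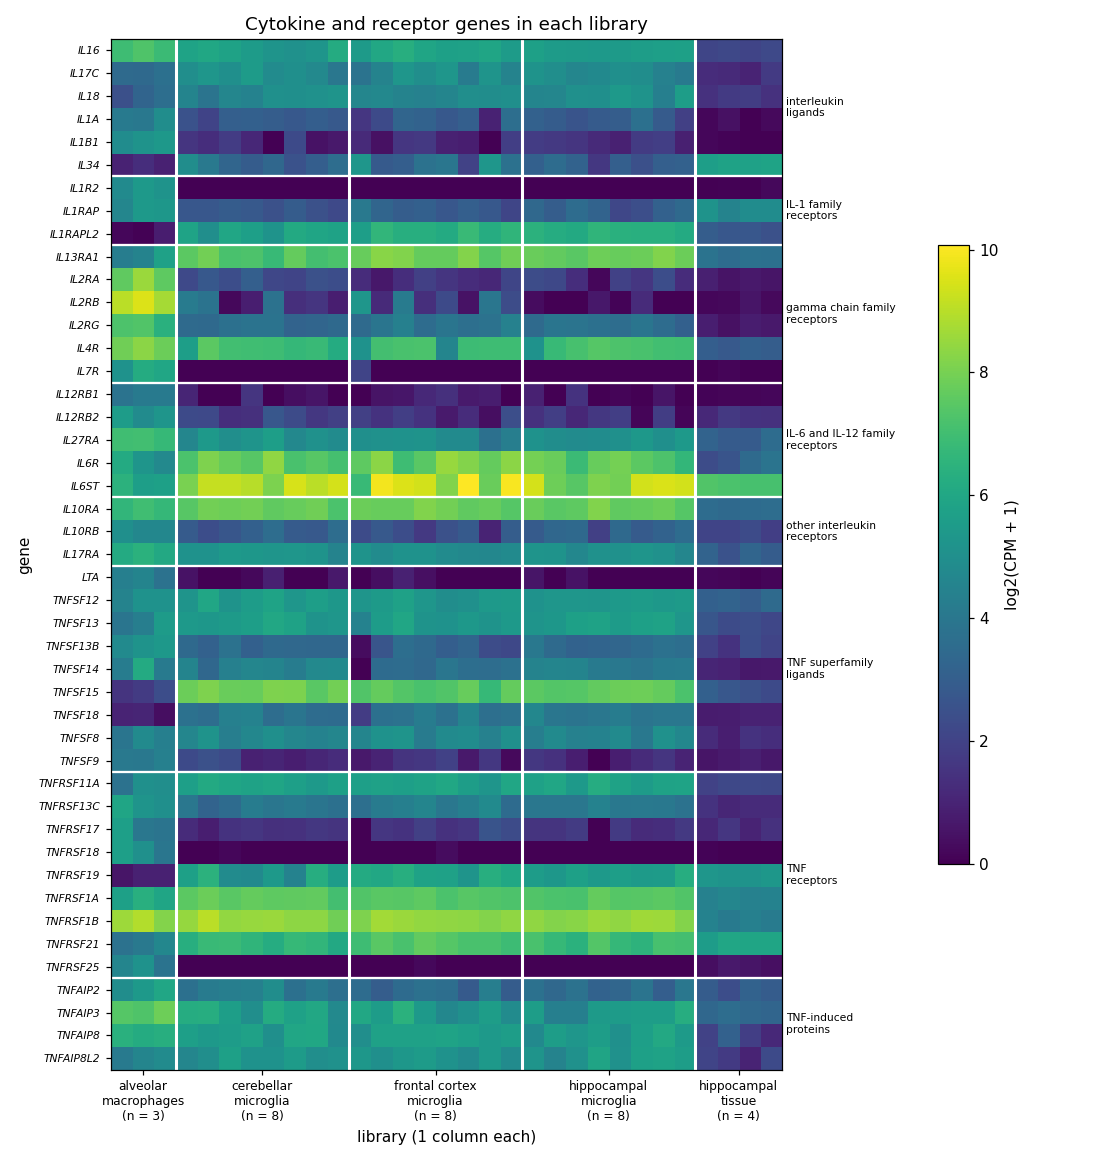
Levels of the 45 genes (rows, grouped by role) in each of the 31 libraries (columns), as log2(CPM + 1). The 3 alveolar macrophage columns are high for IL2RA, IL2RB and IL2RG and low for IL1RAPL2 and TNFRSF19, the 24 microglia columns show the reverse, and the 4 tissue columns are low for most genes other than IL34, IL1RAP, IL6ST, TNFRSF19 and TNFRSF21.

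In all, 6 members were higher in microglia than in both other sample types: IL18, IL1RAPL2, IL13RA1, IL6R, TNFSF15 and TNFSF18. Another 6 were higher in alveolar macrophages than in microglia and higher in hippocampal microglia than in tissue, namely IL1A, IL1B1, IL2RA, IL2RG, IL27RA and TNFAIP3. A further 10 were higher in alveolar macrophages without passing against tissue at an adjusted p under 0.01, and 3 more (IL1RAP, IL10RB and TNFSF13B) differed from tissue by less than 4-fold. TNFRSF19, IL6ST and TNFRSF21 were higher in microglia than in alveolar macrophages without passing against tissue, and 15 members passed both thresholds against tissue alone. IL34 was higher in microglia than in alveolar macrophages and lower than in tissue, and TNFRSF25 was lower in microglia than in both.

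**Figure D2:**
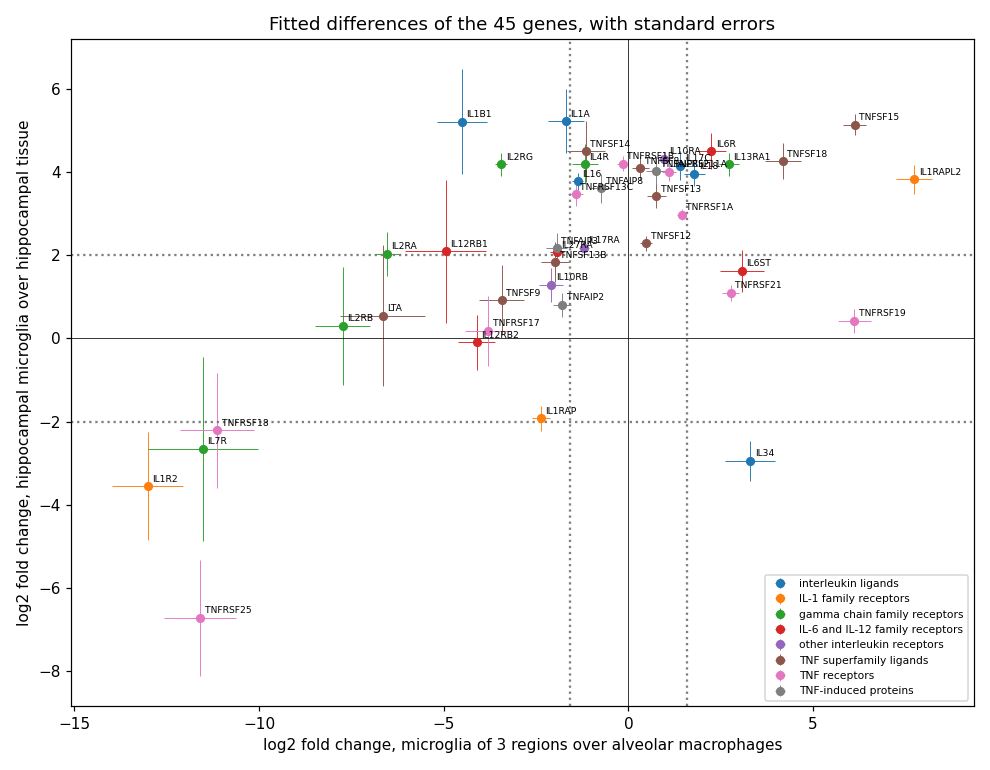
Fitted log2 fold changes of the 45 genes, microglia of 3 regions over alveolar macrophages (x axis) and hippocampal microglia over hippocampal tissue (y axis), with standard errors as bars, colours for the role and dotted lines at the fold thresholds. TNFSF15 and IL1RAPL2 lie far to the upper right, IL34 at the lower right and TNFRSF25 at the lower left.

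Of the 6 interleukin ligands, 2 were higher and 2 lower in microglia than in alveolar macrophages, and 5 were higher and 1 lower than in tissue. Of all genes, 12.2% and 10.1% were so called against alveolar macrophages, and 11.7% and 22.1% against tissue. The 2 interleukin 1 genes were low in microglia and lower still in tissue. IL1B1, the classical inflammatory interleukin 1 that needs cleavage by caspase 1, had 28.5, 34.8 and 39.9 CPM in the 3 alveolar macrophage libraries. In the 24 microglia libraries it ranged from 0 to 3.75 CPM with a median of 1.42, and in the 4 tissue libraries it stood at 0.123, 0.0582, 0 and 0 CPM. Every macrophage library thus lay above every microglia library (log2 fold change −4.51 ± 0.68 SE, adjusted p = 1.8e-06), and hippocampal microglia were higher than tissue (adjusted p = 5.4e-04), for which no fold is given because the tissue libraries held 4, 2, 0 and 0 counts. IL1A, which is active without that cleavage, had 16.3, 15.3 and 29.3 CPM in alveolar macrophages, ranged from 0.930 to 12.03 CPM with a median of 6.49 in microglia, and stood at 0.123, 0.378, 0 and 0.210 CPM in tissue. It was 3.24-fold lower in microglia than in alveolar macrophages (log2 fold change −1.69 ± 0.49 SE, adjusted p = 0.0042), and this call did not hold without the alveolar macrophages of pig 12821 (adjusted p = 0.011) or of pig 12984 (adjusted p = 0.070). Without the 4 microglia libraries with neuronal markers its fold was 2.98, under the threshold of 3. With the pig block neither was called against alveolar macrophages (adjusted p = 0.048 for IL1B1 and 0.54 for IL1A). Against tissue IL1A had log2 fold change 5.22 ± 0.77 SE, adjusted p = 7.8e-07, and 5.89 without the tissue of pig 12829. The microglia mean was 4.44% of the alveolar macrophage mean for IL1B1 and 30.9% for IL1A, a difference between the genes that was not tested.

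IL18, a caspase 1 substrate of the same family, went the other way. It had 4.52, 8.53 and 11.4 CPM in alveolar macrophages, 28.2 ± 7.77 CPM in microglia (n = 24) and 2.05 ± 0.441 CPM in tissue, so that it was 3.44-fold and 15.5-fold higher in microglia (adjusted p = 4.4e-06 and 2.9e-12). Without the alveolar macrophages of pig 12821 the first fold was 2.84, just under the threshold. IL17C and IL16, a chemoattractant for CD4+ cells, differed from alveolar macrophages by less than 3-fold, IL17C upward (2.65-fold, adjusted p = 2.6e-04) and IL16 downward (2.58-fold, adjusted p = 4.7e-09, and 3.12-fold with the pig block). Both were far above tissue, by 17.8-fold and 13.7-fold.

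**Figure D3:**
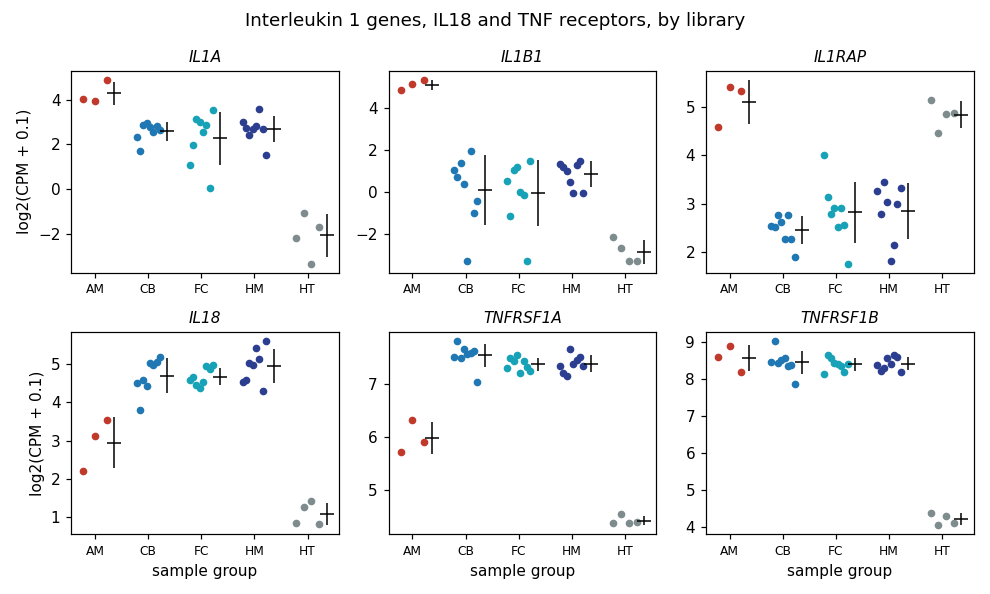
IL1A, IL1B1, IL1RAP, IL18, TNFRSF1A and TNFRSF1B as log2(CPM + 0.1) in each library of alveolar macrophages (AM, n = 3), cerebellar, frontal cortex and hippocampal microglia (CB, FC, HM, n = 8 each) and hippocampal tissue (HT, n = 4), with mean and SD of the log values in black. IL1B1 and IL1RAP were highest in alveolar macrophages, IL18 and TNFRSF1A in microglia, and TNFRSF1B overlapped between the cell types.

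Of the 3 members of the interleukin 1 receptor family, 1 was higher and 2 were lower in microglia than in alveolar macrophages, against 12.2% and 10.1% of all genes. IL1R2, the decoy receptor that binds interleukin 1 without signalling, was listed at 0 in all 24 microglia libraries and had 27.3, 41.7 and 35.2 CPM in alveolar macrophages, at least 313-fold higher when microglia are set to 3 counts per library (adjusted p = 5.6e-06, with the pig block 1). IL1R2 and IL1B1 are also neutrophil genes, and the part of those cells in the alveolar macrophage values was not tested. IL1RAP, the accessory chain shared by the receptors of interleukin 1, 33 and 36, had 23.7, 42.2 and 39.8 CPM in alveolar macrophages, ranged from 3.28 to 15.98 CPM with a median of 6.67 in microglia, and had 35.2, 21.96, 28.9 and 29.2 CPM in tissue. Microglia lay below both, with no overlap with either group (log2 fold change −2.37 ± 0.25 SE, adjusted p = 2.4e-09 against alveolar macrophages and log2 fold change −1.93 ± 0.29 SE, adjusted p = 1.2e-06 against tissue). The fold against tissue, 3.80, missed the threshold of 4. It passed with limma-voom (4.14-fold), with RLE factors or DESeq2 (4.40-fold in each) and with both pig blocks. The same held without the hippocampal microglia of pig 12781 or the tissue of pig 12829. The signalling receptor IL1R1, a gene of the reference table that is not among the 45, was at 8.04 ± 3.22 CPM in alveolar macrophages, 0.0121 ± 0.0429 in microglia and 3.12 ± 0.449 in tissue. IL1RAPL2, an X-linked relative of IL1RAP expressed in brain (chrX:85347867-86464670, plus strand), had the largest fold of the 10 members higher in microglia than in alveolar macrophages. Its values were 0.137, 0.0525 and 0.746 CPM in alveolar macrophages, from 30.6 to 112 CPM with a median of 72.8 in microglia, and 6.80, 5.58, 5.65 and 4.59 CPM in tissue. It was 213-fold above alveolar macrophages (log2 fold change 7.73 ± 0.50 SE, adjusted p = 8.3e-14) and 14.2-fold above tissue (log2 fold change 3.83 ± 0.35 SE, adjusted p = 8.8e-11). Without the alveolar macrophages of pig 12984, with 35 counts, the first log2 fold change was 9.49, set against libraries of 5 and 2 counts.

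IL34 is a ligand of the CSF1 receptor that neurons are known to make. It stood at 0.959, 1.495 and 0.896 CPM in alveolar macrophages, ranged from 2.10 to 38.69 CPM with a median of 7.86 in microglia, and reached 48.8, 55.0, 52.8 and 57.2 CPM in tissue, so that each group was separate from the next. Microglia were higher than alveolar macrophages (log2 fold change 3.30 ± 0.67 SE, adjusted p = 1.1e-04) and hippocampal microglia were 7.71-fold lower than tissue (log2 fold change −2.95 ± 0.49 SE, adjusted p = 4.8e-06). The first call was lost with limma-voom, without and with the pig as a random block (adjusted p = 0.075 and 0.081). The 3 highest microglia values, 29.4 CPM in cerebellum of pig 12583 and 37.9 and 38.69 CPM in frontal cortex of pigs 12599 and 12891, came from 3 of the 4 libraries with neuronal markers over 200 CPM. Without those 4 libraries the mean fell to 8.21 ± 3.63 CPM (n = 20) and the difference from alveolar macrophages remained (log2 fold change 2.88 ± 0.47 SE, adjusted p = 9.6e-06). In hippocampal microglia IL34 stood at 12.96% of its tissue mean and the sum of the 8 neuronal markers at 0.450%, and the part of neuronal RNA in the IL34 values was not tested. Its receptor CSF1R had 110.5, 237 and 258 CPM in alveolar macrophages, from 1279 to 4341 CPM with a median of 2535 in microglia, and 57.3 to 77.2 CPM in tissue. CSF1R was 12.6-fold and 36.7-fold higher in microglia (adjusted p = 1.2e-11 and 2.3e-15).

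The common gamma chain group was taken here with IL13RA1, the partner of IL4R, which is not itself a common gamma chain receptor. Of the 6 chains, 4 were lower and 1 (IL13RA1) higher in microglia than in alveolar macrophages, against 10.1% and 12.2% of all genes. IL2RB, the signalling beta chain for interleukins 2 and 15, had 525, 747 and 419 CPM there, against a range from 0 to 37.7 CPM with a median of 1.32 in microglia and 0.123, 0.174, 0.492 and 0.180 CPM in tissue (log2 fold change −7.73 ± 0.74 SE, adjusted p = 5.0e-10, and log2 fold change −9.20 with limma-voom). IL2RA, the chain that makes the interleukin 2 receptor high in affinity, had 194, 373 and 187 CPM in alveolar macrophages, ranged from 0.116 to 7.34 CPM with a median of 3.04 in microglia, and had 0.858, 0.436, 0.615 and 0.480 CPM in tissue (log2 fold change −6.54 ± 0.33 SE, adjusted p = 5.1e-16). The common chain IL2RG itself had 151, 163 and 83.0 CPM in alveolar macrophages, ranged from 7.55 to 20.5 CPM with a median of 11.9 in microglia, and had 0.797, 0.378, 0.768 and 0.630 CPM in tissue (log2 fold change −3.44 ± 0.16 SE, adjusted p = 9.6e-17). All 3 chains separated the alveolar macrophages from every microglia library, and IL2RG also separated hippocampal microglia from tissue (18.1-fold). IL2RA passed against tissue at 4.09-fold (adjusted p = 0.0012) with overlapping samples, and this call was lost under several alternatives, including limma-voom (adjusted p = 0.21), both pig blocks and the omission of any 1 of 6 libraries (hippocampal microglia of pigs 12750, 12758, 12821 and 12847, and tissue of pigs 12829 and 12872). The folds without those libraries lay between 3.66 and 3.98. IL7R, the interleukin 7 receptor of lymphocytes, had 34.6, 72.3 and 60.9 CPM in alveolar macrophages and was listed at 0 in 23 of 24 microglia libraries. The exception was frontal cortex of pig 12599, at 3.19 CPM (75 counts). IL7R was called against alveolar macrophages (adjusted p = 6.5e-06) and was not with the pig block (adjusted p = 1) or by DESeq2 (adjusted p = 0.041). IL2RA, IL2RB and IL7R are also lymphocyte genes, and all 3 alveolar macrophage libraries carried the T, NK and B cell markers given above. The part of those cells in these differences was not tested.

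The other chains of the group bind interleukins 4 and 13. IL13RA1 had 18.1, 21.8 and 53.6 CPM in alveolar macrophages, ranged from 109.8 to 309 CPM with a median of 209.6 in microglia, and had 13.4, 10.7, 12.4 and 12.1 CPM in tissue. It was 6.61-fold and 18.2-fold higher in microglia, without overlap in either case (adjusted p = 8.3e-10 and 5.9e-14). The first log2 fold change was 2.72, and 3.38 without the alveolar macrophages of pig 12984. Its partner IL4R had 236, 318 and 222 CPM in alveolar macrophages, ranged from 22.8 to 183 CPM with a median of 125 in microglia, and had 7.05, 5.96, 7.62 and 6.93 CPM in tissue. IL4R was 2.26-fold lower in microglia than in alveolar macrophages (adjusted p = 0.0046, under the fold threshold) and 18.2-fold higher than in tissue (adjusted p = 1.3e-08). The adjusted p of IL4R against alveolar macrophages reached 0.22 with the pig block in edgeR and 0.051 without the alveolar macrophages of pig 12829.

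Of the 5 chains in the receptors of interleukins 6, 12 and 27, 2 were higher and 3 lower in microglia than in alveolar macrophages, against 12.2% and 10.1% of all genes. The interleukin 6 receptor chains were both higher in microglia than in alveolar macrophages. IL6R, the ligand-binding chain, had 70.9, 36.7 and 25.9 CPM in alveolar macrophages, ranged from 99.5 to 370.2 CPM with a median of 198 in microglia, and had 4.01, 5.12, 10.05 and 13.6 CPM in tissue (log2 fold change 2.24 ± 0.40 SE, adjusted p = 2.3e-05 and, against tissue, log2 fold change 4.50 ± 0.43 SE, adjusted p = 2.4e-10). With the pig block its adjusted p against alveolar macrophages was 0.011. IL6ST, the signal transducer shared by the whole interleukin 6 family, had 87.9, 49.4 and 52.5 CPM in alveolar macrophages, ranged from 109 to 1077 CPM with a median of 585 in microglia, and had 163, 150.1, 141 and 142 CPM in tissue. It was 8.41-fold higher than in alveolar macrophages (log2 fold change 3.07 ± 0.60 SE, adjusted p = 6.9e-05), while against tissue it passed on p alone (3.07-fold, adjusted p = 0.0047). The microglia libraries did not fill the range of IL6ST evenly: 9 lay between 109.4 and 289 CPM and 15 between 502 and 1077 CPM, and both sets held libraries of all 3 regions. Interleukin 6 itself was at 0.0365 ± 0.0633 CPM in alveolar macrophages, 0.0392 ± 0.139 in microglia and 0.301 ± 0.0719 in tissue, near or under the detection limit in the cells.

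The 3 lower chains belong to the receptors of interleukins 12 and 27. IL12RB1, shared by the receptors of interleukins 12 and 23, had 13.3, 16.8 and 16.6 CPM in alveolar macrophages and over 3 counts in 13 of 24 microglia libraries, where it ranged from 0 to 1.94 CPM with a median of 0.374 (log2 fold change −4.95 ± 1.11 SE, adjusted p = 3.5e-04, with the pig block 0.014, and log2 fold change −6.65 with limma-voom). IL12RB2, the partner specific to interleukin 12, had 46.2, 27.8 and 37.4 CPM in alveolar macrophages, ranged from 0.0937 to 5.65 CPM with a median of 2.10 in microglia, and had 1.26, 2.18, 1.78 and 1.74 CPM in tissue (log2 fold change −4.10 ± 0.50 SE, adjusted p = 3.6e-08). Neither chain was called against tissue (adjusted p = 0.27 and 0.90). The lymphocyte markers given above for the alveolar macrophage libraries apply to both chains, and the part of those cells was not tested. IL27RA was 3.84-fold lower than in alveolar macrophages and 4.19-fold higher than in tissue (adjusted p = 3.0e-10 and 1.3e-08), and the second fold came to 3.98 and 3.95 without the tissue of pigs 12829 and 12847 and to 3.61 with RLE factors or DESeq2.

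The receptor of interleukin 10 pairs IL10RA with IL10RB. IL10RA, the ligand-binding chain, had 96.8, 125 and 105 CPM in alveolar macrophages, ranged from 149 to 289 CPM with a median of 214 in microglia, and had 10.8, 9.80, 10.4 and 10.97 CPM in tissue. No sample overlapped, and microglia were 1.96-fold and 19.9-fold higher (adjusted p = 2.4e-06 and 1.6e-18), the first under the fold threshold. IL10RB, the widely shared second chain, had 31.7, 24.5 and 24.6 CPM in alveolar macrophages, ranged from 1.02 to 11.2 CPM with a median of 6.33 in microglia, and had 3.16, 3.20, 3.99 and 2.64 CPM in tissue, which put microglia 4.26-fold below alveolar macrophages (adjusted p = 2.3e-06). Their ligand IL10, named by the reference table alone, was at 20.5 ± 11.4 CPM in alveolar macrophages, 6.28 ± 2.39 in microglia and 0.129 ± 0.116 in tissue. IL17RA, the common interleukin 17 receptor chain, was 2.31-fold lower than in alveolar macrophages and 4.52-fold higher than in tissue (adjusted p = 2.7e-08 and 1.2e-11), the second 3.89-fold with RLE factors.

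**Figure D4:**
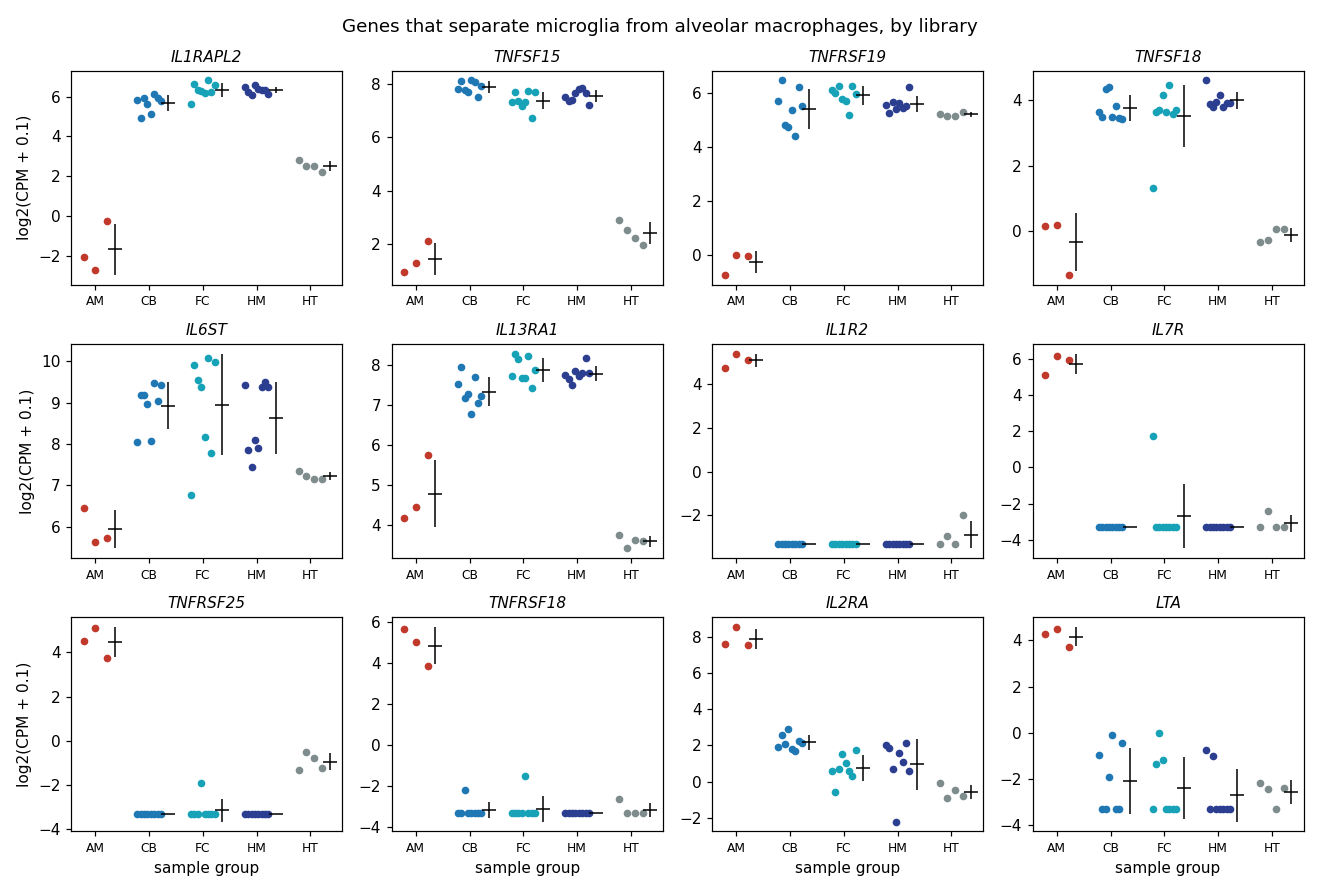
Levels of 12 members as log2(CPM + 0.1) in each library of alveolar macrophages (AM, n = 3), cerebellar, frontal cortex and hippocampal microglia (CB, FC, HM, n = 8 each) and hippocampal tissue (HT, n = 4), with mean and SD of the log values in black. The first 6 were higher in microglia and the last 6 in alveolar macrophages, and in all 12 no microglia library overlapped the alveolar macrophages.

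Of the 9 TNF superfamily ligands, 2 were higher and 3 lower in microglia than in alveolar macrophages, against 12.2% and 10.1% of all genes. Against tissue 6 were higher, where 11.7% of all genes were. The 2 ligands higher than in alveolar macrophages passed in both comparisons, and the receptor of each was lower in microglia than in alveolar macrophages. TNFSF15 (TL1A, chr1:255328731-255349508, minus strand) had 1.84, 2.34 and 4.26 CPM in alveolar macrophages, ranged from 107 to 280.3 CPM with a median of 205 in microglia, and had 7.45, 5.70, 4.61 and 3.84 CPM in tissue. It was 69.9-fold higher than in alveolar macrophages (log2 fold change 6.13 ± 0.30 SE, adjusted p = 2.5e-16) and 35.2-fold higher than in tissue (log2 fold change 5.14 ± 0.26 SE, adjusted p = 1.2e-16). TNFRSF25 (DR3), the death domain receptor for TNFSF15 that T cells carry, had 22.7, 34.4 and 13.3 CPM in alveolar macrophages and 0.306, 0.611, 0.492 and 0.330 CPM in tissue, and was listed at 0 in 23 of 24 microglia libraries, with 5 counts in frontal cortex of pig 12750. It was called lower in microglia against both (adjusted p = 4.2e-08 and 4.4e-04), and with the pig block against neither (adjusted p = 0.035 and 0.040). Against tissue the fold was at least 4.10 with hippocampal microglia set to 3 counts per library. TNFSF18 (GITR ligand) had 1.01, 1.05 and 0.299 CPM in alveolar macrophages, ranged from 2.42 to 24.1 CPM with a median of 13.7 in microglia, and had 0.705, 0.727, 0.953 and 0.960 CPM in tissue. Its folds were 18.1 and 19.1 (adjusted p = 1.6e-08 and 1.1e-09). TNFRSF18 (GITR), its receptor, had 50.1, 31.9 and 14.4 CPM in alveolar macrophages and over 3 counts in 1 of 24 microglia libraries, where it reached 0.247 CPM (adjusted p = 2.2e-09, with the pig block 0.080). TNFRSF18 and TNFRSF25 are lymphocyte genes as well, and the markers given above apply to them.

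The B cell survival factors and their receptors formed another set. TNFSF13B (BAFF) had 27.5, 35.0 and 40.5 CPM in alveolar macrophages, ranged from 0.255 to 15.5 CPM with a median of 9.38 in microglia, and had 2.88, 1.80, 4.21 and 3.15 CPM in tissue. It was 3.96-fold lower in microglia than in alveolar macrophages (adjusted p = 3.7e-05, with the pig block 0.015) and 3.56-fold higher than in tissue (adjusted p = 0.0012, under the fold threshold, and 4.12-fold without the tissue of pig 12847). TNFSF13 (APRIL) had 14.2, 18.8 and 44.8 CPM in alveolar macrophages, ranged from 20.9 to 63.9 CPM with a median of 42.3 in microglia, and had 5.55, 3.95, 4.43 and 3.45 CPM in tissue. It did not pass against alveolar macrophages (adjusted p = 0.013), did so with the pig block (adjusted p = 4.2e-05), and was 10.7-fold above tissue. TNFSF12 (TWEAK) lies 317 bases before TNFSF13 on the same strand of chromosome 12, so reads of the 2 genes may not be fully separated. It was at 29.8 ± 7.14 CPM in alveolar macrophages, 41.7 ± 7.53 in microglia and 8.17 ± 1.37 in tissue. TNFRSF13C, the BAFF receptor of B cells, had 58.8, 36.6 and 30.98 CPM in alveolar macrophages, ranged from 8.15 to 27.1 CPM with a median of 15.0 in microglia, and had 1.81, 1.13, 1.38 and 1.35 CPM in tissue (11.01-fold, adjusted p = 4.2e-12). It was 2.696-fold lower in microglia than in alveolar macrophages (adjusted p = 3.7e-07), and 3.04-fold lower without the alveolar macrophages of pig 12984. The B cell antigen receptor gene CD79A was at 70.1 ± 31.5 CPM in microglia. TNFRSF17 (BCMA), the receptor of plasma cells for both ligands, had 50.3, 15.1 and 13.6 CPM in alveolar macrophages in the order of pigs 12821, 12829 and 12984, in which the B and plasma cell markers summed to 2946, 1052 and 933.6 CPM. It ranged from 0 to 5.12 CPM with a median of 1.84 in microglia and stood at 1.20, 2.04, 0.983 and 1.71 CPM in tissue, and it was 13.9-fold lower in microglia than in alveolar macrophages (log2 fold change −3.80 ± 0.62 SE, adjusted p = 6.0e-06), with a log2 fold change of −2.91 without the alveolar macrophages of pig 12821. Within the marker sum, JCHAIN alone ranged from 407 to 2225 CPM in alveolar macrophages. The part of B and plasma cells in the TNFRSF17 values was not tested.

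Of the remaining ligands, LTA (lymphotoxin alpha) had 19.2, 22.6 and 12.9 CPM in alveolar macrophages, over 3 counts in 9 of 24 microglia libraries with a highest value of 0.893 CPM, and 0.123, 0.0872, 0 and 0.0900 CPM in tissue (adjusted p = 1.3e-05 against alveolar macrophages, with the pig block 0.018). The lymphocyte markers given above apply to LTA as well. TNFSF9 (4-1BB ligand) was 10.8-fold lower in microglia than in alveolar macrophages (adjusted p = 2.2e-05). TNFSF8 (CD30 ligand) was at 20.3 ± 6.40 CPM in alveolar macrophages and 25.4 ± 5.87 in microglia, with overlapping samples (log2 fold change 0.32 ± 0.23 SE, adjusted p = 0.23), and 17.1-fold above tissue. TNFSF14 (LIGHT) had 17.98, 70.8 and 16.4 CPM in alveolar macrophages and was 22.6-fold above tissue (adjusted p = 3.5e-06, with limma-voom 0.030). It was listed at 0 in frontal cortex microglia of pig 12599, where all others of that region had 9.65 CPM or more.

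Among the 9 TNF receptors 2 were higher and 3 lower in microglia than in alveolar macrophages, against 12.2% and 10.1% of all genes. The receptors for TNF and lymphotoxin alpha were not among those called. TNFRSF1A, the death domain receptor found on most cells, had 52.6, 79.8 and 60.0 CPM in alveolar macrophages, ranged from 133 to 224 CPM with a median of 175 in microglia, and had 20.6, 23.3, 20.7 and 21.0 CPM in tissue. The groups did not overlap, and microglia were 2.72-fold above alveolar macrophages (adjusted p = 7.5e-11), 3.11-fold without those of pig 12829, and 7.86-fold above tissue (adjusted p = 9.8e-18). TNFRSF1B, the receptor typical of immune cells, had 389, 478 and 291 CPM in alveolar macrophages and ranged from 234 to 516 CPM with a median of 339 in microglia, so that the 2 cell types overlapped (log2 fold change −0.16 ± 0.14 SE, adjusted p = 0.34). Both stood far above tissue at 20.8, 16.6, 19.8 and 17.2 CPM (18.4-fold for hippocampal microglia). These were also among the steadiest members over the 24 microglia libraries, with coefficients of variation of 12.7% for TNFRSF1A and 15.7% for TNFRSF1B. TNFRSF11A (RANK), which drives osteoclast formation, was similar at 15.4%, 2.14-fold above alveolar macrophages and 16.1-fold above tissue (adjusted p = 1.6e-05 and 1.2e-15).

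TNFRSF19 (TROY) and TNFRSF21 (DR6), which are known in neural cells, were present in tissue as well as in microglia. TNFRSF19 had 0.4934, 0.892 and 0.874 CPM in alveolar macrophages, ranged from 21.1 to 89.0 CPM with a median of 50.6 in microglia, and had 37.8, 35.4, 35.3 and 39.7 CPM in tissue. It was 69.3-fold above alveolar macrophages (log2 fold change 6.12 ± 0.44 SE, adjusted p = 1.0e-12), whereas hippocampal microglia and tissue overlapped (log2 fold change 0.42 ± 0.28 SE, adjusted p = 0.18). TNFRSF21 had 12.8, 15.8 and 24.4 CPM in alveolar macrophages, ranged from 66.4 to 198 CPM with a median of 118 in microglia, and had 47.0, 61.3, 59.9 and 59.7 CPM in tissue, 6.81-fold and 2.13-fold lower than microglia (adjusted p = 2.8e-11 and 1.3e-05). In hippocampal microglia the astrocyte and oligodendrocyte markers stood at 5.75% and 1.69% of their tissue sums. SLC1A3 made up most of that astrocyte sum, at 248 ± 84.3 CPM, with GFAP at 17.4 ± 14.8 CPM. Without the 4 libraries named above, which were chosen by neuronal markers only, TNFRSF19 had a mean of 51.4 ± 18.3 CPM. The part of RNA from other brain cells in the TNFRSF19 and TNFRSF21 values was not tested.

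Of the proteins named for their induction by TNF, the NF-kappaB inhibitor TNFAIP3 (A20) was 3.85-fold lower in microglia than in alveolar macrophages and 4.48-fold higher than in tissue (adjusted p = 7.0e-07 and 7.3e-06). With the pig block the first fold was 2.96, just under 3, and without the hippocampal microglia of pig 12872 the second fell just short of 4. With RLE factors or DESeq2 the second fold was 3.86. TNFAIP2 was 3.48-fold lower than in alveolar macrophages with overlapping samples (adjusted p = 2.7e-07), 2.79-fold without those of pig 12984, and not called with the pig block (adjusted p = 0.012). TNFAIP8 and TNFAIP8L2, relatives with roles in cell survival and immune restraint, did not pass against alveolar macrophages (adjusted p = 0.021 and 0.021) and were 12.2-fold and 16.2-fold above tissue. The log2 fold change of TNFAIP8 against tissue was 3.60, and 4.29 without the tissue of pig 12829.

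Downstream genes of these receptors were taken as a list mainly of JAK, STAT, SOCS, IRAK, TRAF, NF-kappaB and inflammasome components. CSF1R, which is a receptor and a microglial marker and no downstream component, stood in the same list. It is counted among the genes higher in both comparisons below. Of the list, 51 of 54 genes were matched and tested. Against alveolar macrophages 4 were higher in microglia and 10 lower, where 12.2% and 10.1% of all genes were. Against tissue 19 were higher in hippocampal microglia and 0 lower, where 11.7% and 22.1% of all genes were. In edgeR 1 gene, the NF-kappaB inhibitor TNIP1, was lower than in tissue at an adjusted p under 0.01 without the fold. The median log2 fold changes of the list were −0.29 and 1.62. The 4 higher genes were CSF1R, the inflammasome sensor NLRP3 (69.5 ± 32.1 CPM in alveolar macrophages and 631 ± 98.7 in microglia, 9.06-fold, adjusted p = 3.3e-13), its adaptor PYCARD (5.89-fold, adjusted p = 6.7e-11) and the kinase IRAK2 (6.76-fold, adjusted p = 4.6e-16). CASP1, which cleaves IL1B1 and IL18, was 2.99-fold higher (adjusted p = 1.7e-07), just under the fold threshold. The 10 lower genes were TNIP3, STAT4, SOCS1, TRAF5, SOCS3, NFKB2, TNIP1, REL, TRAF4 and NFKB1. The part of lymphocyte RNA in these differences was not tested. SOCS1 and SOCS3, the feedback inhibitors of cytokine receptors, were at 82.4 ± 14.0 and 56.0 ± 19.3 CPM in alveolar macrophages and at 1.55 ± 1.01 and 2.08 ± 1.91 CPM in microglia (adjusted p = 2.3e-10 and 4.7e-08). NFKB1 and NFKB2 were 3.31-fold and 5.14-fold lower (adjusted p = 2.2e-15 and 2.1e-13), while JAK3, the kinase bound to IL2RG, did not pass at 252 ± 54.8 and 207 ± 38.0 CPM (adjusted p = 0.091).

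Between the 3 microglia regions the share of members called was near that of all genes, so nothing about the family is read from it. In the test over all 3 regions at an adjusted p under 0.01, 1 of 45 members was called, where 2.03% of all genes were, and the members called between pairs of regions were 1 for cerebellum against frontal cortex (1.87% of all genes), 0 for cerebellum against hippocampus (0.602%) and 0 for frontal cortex against hippocampus (0.318%). For the last 2 pairs, 7 and 9 members had an unadjusted p under 0.05, against 19.8% of all genes in both, and DESeq2 called 1 in each. The 3 members with the smallest regional p were IL2RB, TNFRSF21 and IL2RA. IL2RB ranged from 0.156 to 17.2 CPM with a median of 1.74 in cerebellar, from 0.418 to 37.7 CPM with a median of 3.94 in frontal cortex and from 0 to 1.34 CPM with a median of 0.0313 in hippocampal microglia (adjusted p = 0.0095). Its high values were scattered, with 12.9 to 17.2 CPM in cerebellum of pigs 12583, 12599 and 12821 and 14.6 to 37.7 CPM in frontal cortex of pigs 12599, 12720 and 12891. The regional call was kept when any 1 of 9 libraries was left out and lost for each of the other 22 (adjusted p from 0.0051 to 0.021 over the 31), and it was absent with the pig block (adjusted p = 0.095), with limma-voom (adjusted p = 0.084) and without the 4 libraries with neuronal markers (adjusted p = 0.018). The T cell gene CD3D was at 1.01 ± 1.20, 2.24 ± 1.63 and 0.0316 ± 0.0499 CPM in the 3 regions in that order, and its part in the IL2RB values was not tested. The sum of the whole T and NK cell list was 105.9 to 203 CPM in cerebellar, 100.2 to 169 CPM in frontal cortex and 144 to 212 CPM in hippocampal microglia.

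TNFRSF21 ranged from 66.4 to 116 CPM with a median of 97.7 in cerebellar, from 120.1 to 198 CPM with a median of 144 in frontal cortex and from 86.2 to 166 CPM with a median of 121 in hippocampal microglia. No cerebellar library reached the lowest frontal cortex library, and the log2 fold change of cerebellum over frontal cortex was −0.70 ± 0.15 SE (adjusted p = 0.0054, with the pig block 0.0054). Over all 3 regions its adjusted p was 0.013. The pairwise call was lost without cerebellum of pigs 12583, 12758, 12821 or 12902 or frontal cortex of pigs 12750 or 12758 (adjusted p from 0.010 to 0.015), and without the 4 libraries with neuronal markers it had an adjusted p of 0.018. IL2RA, which ranged from 3.18 to 7.34 CPM with a median of 4.18 in cerebellar, from 0.567 to 3.32 CPM with a median of 1.47 in frontal cortex and from 0.116 to 4.27 CPM with a median of 2.45 in hippocampal microglia, had an adjusted p of 0.049. IL1RAPL2 was at 52.1 ± 13.2, 82.5 ± 19.1 and 80.4 ± 9.33 CPM in the 3 regions and did not pass in edgeR (adjusted p = 0.093), but did with limma-voom and DESeq2 (adjusted p = 0.0033 and 0.0012). TNFSF15 was at 238 ± 36.2, 170.4 ± 36.9 and 190.4 ± 29.0 CPM (adjusted p = 0.091), and passed only with the pig as a random block in limma-voom (adjusted p = 0.0068).

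**Figure D5:**
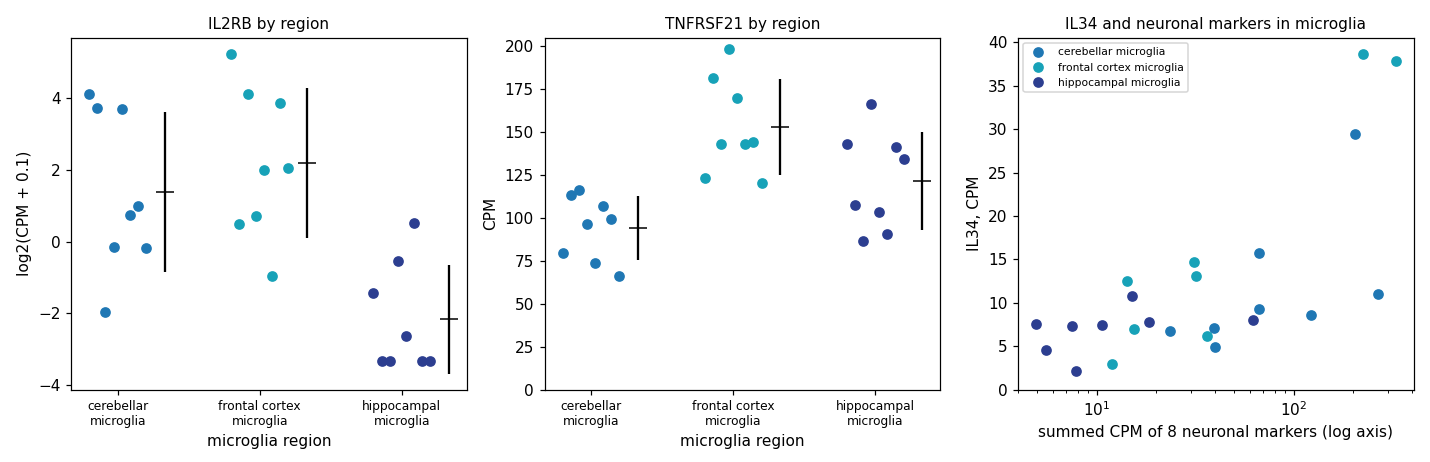
IL2RB as log2(CPM + 0.1) and TNFRSF21 in CPM in the 8 libraries of each microglia region, with mean and SD in black, and IL34 in CPM against the summed CPM of 8 neuronal markers (log axis) in the same 24 libraries. TNFRSF21 reached at most 116 CPM in cerebellar and at least 120.1 CPM in frontal cortex libraries, and the 3 highest IL34 values belong to libraries with neuronal markers over 200 CPM.

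Because the 45 symbols came largely from called genes, the same name rule was also applied to the reference gene table, which gave 76 genes over 1 CPM, 42 of them members. Of the other 34, 7 passed the filter on low counts of the main test. In a test with the more lenient filterByExpr filter, 33 of the other 34 could be tested. Against alveolar macrophages 2 were higher in microglia and 16 lower, with 9.11% and 11.0% of all 23168 genes. Against tissue 4 were higher in hippocampal microglia and 5 lower, with 9.15% and 21.4% of all genes. Some of these genes, among them TNFRSF4, IL17A, IL22 and IL21, were listed at 0 in microglia and tissue. They passed the filters through the alveolar macrophages alone, which fixed their direction, so nothing about the family is read from these counts. The genes lower in microglia included IL1R1, IL23R (12.6 ± 4.66 CPM in alveolar macrophages and 0.0311 ± 0.0745 in microglia), IL18RAP (16.5 ± 6.45 and 0.0141 ± 0.0688) and TNFRSF4 (20.9 ± 11.96, listed at 0 in all microglia). The alarmin IL33 was at 1.21 ± 0.815 CPM in microglia and 10.9 ± 0.919 CPM in tissue.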

How the data were processed

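RNA was sequenced from sorted cells and tissue of 31 samples (15 pigs, 5 groups, taken from the labels). The deposited table holds raw read counts per Ensembl gene, which the authors made with HISAT2 and StringTie on Sscrofa11.1 (processing notes, without versions), and it was used as deposited. The strand setting of the counting is not given in the sources used here. Gene symbols came from the study's supplementary tables, of which only the pairing of identifiers with symbols was used. Positions and upstream windows came from the RefSeq annotation of Sscrofa11.1. All 45 members and the lists of signalling and marker genes were chosen with earlier results of these data known, and the motifs and the left-out libraries with neuronal markers were chosen after seeing the data.

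A gene was tested if some group had it over 10 CPM in each of its samples (11633 of 31907 genes). The test was 1 edgeR quasi-likelihood fit of the 5 groups (glmQLFit, robust, TMM factors, edgeR 4.0.16, R 4.3.3) with Benjamini-Hochberg adjustment over all genes tested. A call needed an adjusted p under 0.01 and a fold over 3 against alveolar macrophages or over 4 against tissue. Regions were tested with an F test and 3 pairwise contrasts at an adjusted p under 0.01. CPM values are TMM-normalized. Every adjusted p in the text is from edgeR unless limma-voom (limma 3.58.1, the test named in the study's methods) or DESeq2 1.42.0 is named. The scripts were tested on simulated data. The SE of a log2 fold change was its absolute value divided by the square root of the F statistic of its test. It thus includes the spread between libraries, and each SD was taken between libraries. Detection limits of 3 counts cover counting error only.

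Per-sample values were given for the 3 largest called and non-overlapping differences in each direction, the 3 smallest regional p values and a set of ligand and receptor pairs, and other members by mean or fold. The pig numbers in the labels mark the same animal, so they pair samples. Over 25 same-pig pairs of libraries, deviations from the group means had a mean correlation of 0.08, and over 347 pairs from different pigs −0.005. The main test had no term for the pig, which entered as a block in 2 alternative fits. The limma-voom fit with the pig as a random block estimated a within-pig correlation of 0.205 over the genes tested. Other alternatives were RLE or no factors, 2 other filters on low counts, only the groups compared, and leaving out each sample.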

Additional observations from a re-analysis of the deposited data

Results flagged for a closer look

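Within groups of 4 or 8 libraries, Dixon's test for a single outlying value picked out 23 of 169 sets of member values. For normal and independent values 1 in 20 would give 8.45. The sets share libraries, and in some of them all other values were 0, so no excess over chance is read from these numbers. Frontal cortex microglia of pig 12599 stood apart in 4 genes, with IL1RAP at 15.98 CPM (the others 3.28 to 8.64), IL2RB at 37.7 CPM (0.418 to 17.4), IL7R at 3.19 CPM (all others listed at 0) and TNFSF14 listed at 0 (9.65 to 14.7). The neuronal markers of that library summed to 328 CPM. Hippocampal microglia of pig 12817 stood apart in 3, with IL10RA at 289 CPM (172 to 223), TNFRSF13C at 20.9 CPM (13.1 to 15.97) and TNFRSF17 listed at 0 (1.37 to 2.34).

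Among the other hippocampal microglia, pig 12750 had IL4R at 33.7 CPM (108.7 to 168) and TNFSF18 at 24.1 CPM (13.7 to 17.6), pig 12847 had IL13RA1 at 286 CPM (179.9 to 229), pig 12829 had IL2RB at 1.34 CPM (0 to 0.582), and pig 12872 had TNFRSF19 at 76.0 CPM (38.9 to 51.7). In cerebellar microglia, IL34 was 29.4 CPM in pig 12583 (4.86 to 15.8), IL17RA was 21.98 CPM (34.0 to 42.6) and TNFRSF1A 133 CPM (181 to 224) in pig 12902, TNFSF13B was 13.02 CPM in pig 12750 (7.60 to 9.99), and TNFAIP2 was 29.9 CPM in pig 12821 (11.7 to 19.7). In frontal cortex microglia, LTA was 0.893 CPM in pig 12720 (0 to 0.337), TNFRSF18 0.247 CPM in pig 12758 and TNFRSF25 0.169 CPM in pig 12750, the last 2 being 8 and 5 counts where all others were listed at 0. In hippocampal tissue, IL2RB was 0.492 CPM in pig 12847 (0.123 to 0.180), TNFRSF1A 23.3 CPM in pig 12829 (20.6 to 21.0) and TNFRSF21 47.0 CPM in pig 12821 (59.7 to 61.3).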

How the results depend on the processing

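The counts of members called against alveolar macrophages and tissue moved by less than 1.5 times under the alternative factors, filters, tests and thresholds, with these exceptions. With the pig as a replicate block in edgeR, 10 members were higher in alveolar macrophages in place of 20, and 9 of them were shared. With only the groups compared, 1 member in place of 2 was higher in tissue. With filterByExpr or no filter, 46 genes named by the reference table passed against alveolar macrophages in place of 29, since more genes were tested. Taking names from the reference table would give 76 members. Leaving out 1 library at a time gave 9 to 11 members higher and 19 to 20 lower in microglia than in alveolar macrophages, 25 to 27 higher and 2 to 3 lower than in tissue, 13 to 16 and 19 to 21 signalling genes, and 29 to 31 and 28 to 30 genes named by the reference table. RLE factors moved the median log2 fold change of all genes against tissue by −0.21 and no factors by 0.23.

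Regional calls rested on the method. Over the 3 regions, 1 member became 0 with filterByExpr, with no filter, with the edgeR replicate block and without the 4 libraries with neuronal markers, 2 with no factors or limma-voom, and 3 with DESeq2, at an adjusted p under 0.05 or with the limma-voom replicate block. For cerebellum against frontal cortex, 1 became 0 with filterByExpr or no filter, 2 with limma-voom, with only those groups or at an adjusted p under 0.05, and 3 with DESeq2 or the limma-voom replicate block. For cerebellum against hippocampus, 0 became 1 with DESeq2, at an adjusted p under 0.05 and with the limma-voom replicate block, and for frontal cortex against hippocampus with DESeq2 and at an adjusted p under 0.05. Leaving out 1 library gave 0 to 2, 0 to 2, 0 to 0 and 0 to 1 in these tests in that order.

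Signs turned only for members not called in the comparison, mostly near the detection limit in hippocampal microglia and tissue, on the log2 scale. IL2RB against tissue was −1.36 with limma-voom, −0.0085 and −1.09 with the replicate blocks in edgeR and limma-voom, and −0.76 to 0.90 without single libraries. TNFRSF17 was −0.031 with RLE factors, −0.032 with DESeq2, −0.57 with limma-voom and −0.38 with its replicate block. LTA was −0.85 with limma-voom, −2.68 and −0.92 with the blocks, and −0.29 to 0.87 without single libraries. IL12RB1 was −0.18, −0.77 and −0.44 in the same 3 fits. IL12RB2 was 0.13 with no factors and −0.24 to 0.083 without single libraries. TNFRSF1B against alveolar macrophages was −0.32 to 0.029 without single libraries, the last without pig 12829. The cause of these changes was not tested.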

Other observations

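Several interleukin genes that the reference table names, and that are no members, were read in alveolar macrophages and listed at 0 in all 24 microglia libraries. They include the T helper cytokines IL17A (2.37 ± 0.1596 CPM, mean ± SD, n = 3), IL22 (5.67 ± 1.68 CPM) and IL21 (1.45 ± 0.877 CPM), and the interleukin 5 receptor chain IL5RA (6.47 ± 3.70 CPM). IL1RL1, the receptor of IL33 on mast cells and group 2 lymphoid cells, was at 134 ± 112 CPM in alveolar macrophages and 0.522 ± 1.19 CPM in microglia. IL21R differed between the cell types by less than its SD, at 29.4 ± 13.6 and 31.3 ± 16.8 CPM, and stood at 0.685 ± 0.269 CPM in tissue. IL1RAPL1, the paralogue of IL1RAPL2, was at 1.30 ± 1.71 CPM in microglia and 13.1 ± 1.74 CPM in tissue and was listed at 0 in alveolar macrophages, whereas IL1RAPL2 was 71.7 ± 19.8 CPM in microglia and 5.66 ± 0.906 CPM in tissue.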
